A study of Homo sapiens and Mus musculus with 33 samples.

Results

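The cells described here were the NIH3T3 cells of a mixed-species library, 291 of its 586 cell barcodes and of 30019 barcodes over all single-cell libraries of the series. NIH3T3 is an immortalised mouse fibroblast line that grows attached and is widely used to study growth control. In the mixed library it was combined 1:1 with Jurkat (clone E6-1), a line from a human T cell leukaemia, and carried through NOTE-seq, a single-cell assay of newly made RNA, with no 4-thiouridine (4sU) label and no chemical conversion. Barcodes were chosen by the share of their UMIs (unique molecular identifiers, each standing for 1 captured RNA molecule) on mouse genes, with 90% as the least share. The contrast was a library of 1777 unstimulated mouse naive T cells (0 h) from lymph nodes, which were labelled with 4sU. Levels in 5 other naive T libraries (1 with no 4sU, whose stimulation the labels do not state, and 4 with 4sU, stimulated through CD3 and CD28 for 2, 4, 6 or 8 h) and in the 239 Jurkat barcodes of the mixed library (at least 90% human UMIs) are given where they bear on a value. Strain and age of the mice and the culture state of the NIH3T3 cells are not in the labels used here. Each group is 1 library, so no difference has a replicate check and no test was made. The mixed library was counted against a joint human and mouse gene list and the naive T libraries against the mouse list alone. Cell type, library, depth, 4sU label, conversion and counting reference cannot be told apart between NIH3T3 cells and naive T cells. All intervals are 95% exact Poisson, binomial or conditional intervals and cover counting error only.

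Fibroblasts build connective tissue: they secrete fibrillar collagens, fibronectin and proteoglycans, crosslink them outside the cell, and grip them through integrins tied to actin cables. They also release growth factors and chemokines that recruit and sustain other cells. A naive T cell is a small resting lymphocyte that does not build this matrix, and it carries the T cell receptor and CD3 chains.

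The rule separated 3 groups of barcodes. Beside the 291 mouse and 239 human barcodes, 56 lay between and were left out. The 3 mouse barcodes nearest the threshold had 90.8%, 91.3% and 91.3% mouse UMIs, and the 3 nearest outside had 89.997%, 87.1% and 86.7%. The NIH3T3 barcodes held 1204730 mouse UMIs, with a lowest, median and highest of 540, 3583 and 21514 UMIs and of 447, 1633 and 5282 genes per cell. The 0 h naive T cells held 731209 UMIs with a median of 375 per cell, and medians in the 6 naive T libraries ran between 338 and 659. NIH3T3 barcodes also carried 15382 human UMIs, 1.26% of their total (1.24% to 1.28%), with 17, 47 and 233 as the lowest, median and highest number per cell. Jurkat barcodes carried 32981 mouse UMIs, 2.78% of their total. Without 5 loci (Gm42418, Lars2 and AY036118 in mouse, LINC00486 and PLCG2 in human, chosen after the data were seen), these shares were 1.24% in NIH3T3 barcodes and 1.17% in Jurkat barcodes. Gm42418, which overlaps a ribosomal RNA repeat, alone held 18769 of the mouse UMIs in Jurkat barcodes. At most 2 NIH3T3 barcodes were shared with any of the 15 other libraries of single cells that were compared, and none with the 0 h naive T library.

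**Figure D1:**
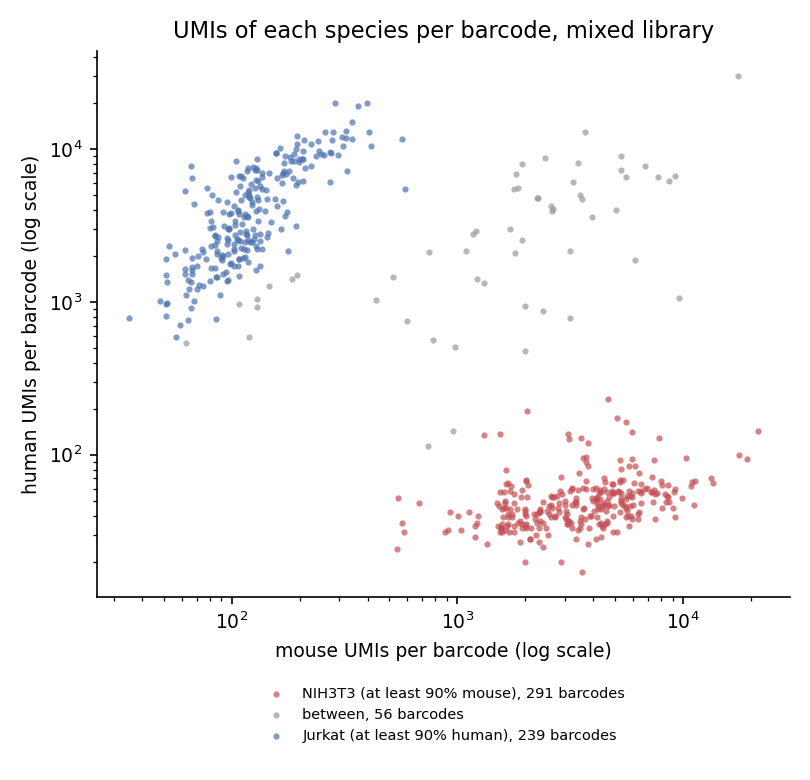
Mouse UMIs (x axis, log scale) and human UMIs (y axis, log scale) of each of the 586 barcodes of the mixed library. The 291 NIH3T3 barcodes lie low on the right with 17 to 233 human UMIs each, the 239 Jurkat barcodes high on the left with 35 to 585 mouse UMIs, and 56 barcodes lie between.

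The label was checked against fibroblast and T cell markers. Of 16 fibroblast markers, 15 had a UMI in NIH3T3 cells and 13 had at least 20. Their summed level was 11380 CPM (counts per 1e+06 mouse UMIs) in NIH3T3 cells and 347 CPM in 0 h naive T cells. S100a6 alone gave 5580 of the 11380 CPM, Lgals1 gave 2337 and Vim 835. In 0 h naive T cells Thy1 gave 162 of the 254 UMIs of these markers. An NIH3T3 cell held 0, 37 and 229 UMIs of the 16 markers as its lowest, median and highest value. Only 1 cell held none. Of 12 T cell markers, only Cd4 was detected in NIH3T3 cells, with 3 UMIs over 291 cells, against 3703 UMIs for the 12 together in naive T cells. Of the fibroblast markers Pdgfrb and Col3a1 had 10 and 7 UMIs. Thy1, a surface glycoprotein of many fibroblasts and of mouse T cells, had 0 UMIs in NIH3T3 cells and 162 in 0 h naive T cells, at least 89.0-fold lower in NIH3T3 cells (a 0 taken as 3 UMIs in all such bounds). Markers of other lineages were near 0 in NIH3T3 cells: the summed lists held 25 UMIs for myeloid, 33 for endothelial, 17 for epithelial, 12 for adipocyte and 0 for NK cell genes, and 73 for smooth muscle and pericyte genes, 55 of them Cspg4. In the B cell list 68 of 77 UMIs came from Ebf1, a transcription factor that is also active in mesenchymal cells, while Cd79a had 1 and Ms4a1 and Igkc had 0.

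**Figure D2:**
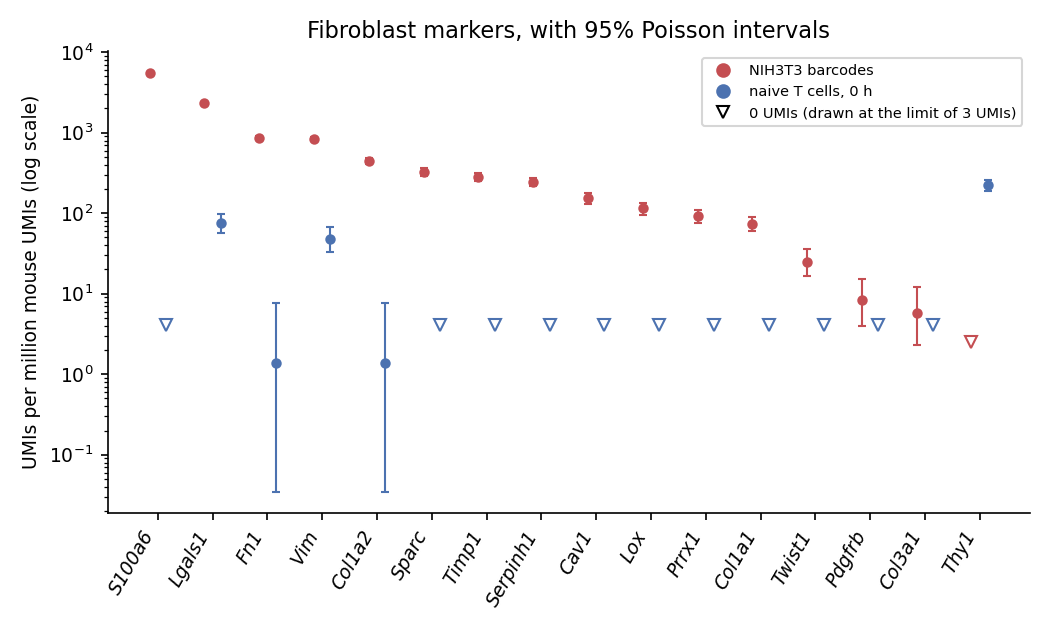
Level of 16 fibroblast markers in CPM (y axis, log scale) in NIH3T3 cells (left of each pair) and 0 h naive T cells (right). Bars are 95% Poisson intervals, and open triangles are genes with 0 UMIs drawn at the limit of 3 UMIs; in NIH3T3 cells the levels span 5580 CPM for S100a6 to 5.81 CPM for Col3a1, and Thy1 is at 0.

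Type I collagen, the main fibrillar collagen of skin and bone, was led by its alpha-2 chain. Col1a2 had 536 UMIs in NIH3T3 cells, 445 CPM (408 to 484), and 1 UMI in 0 h naive T cells, a ratio of 325 (58.1 to 12873). Col1a1, the alpha-1 chain, had 89 UMIs, 73.9 CPM (59.3 to 90.9), and 0 in naive T cells, at least 18.0-fold higher in NIH3T3 cells. UMIs count each captured molecule once, but capture can differ between genes, and an effect of gene length on the counts was not tested. Col1a2 was seen in 69.4% of NIH3T3 cells (63.8% to 74.7%) and Col1a1 in 19.2% (14.9% to 24.3%). In Jurkat barcodes, which should hold no mouse collagen, the shares were 6.28% for Col1a2 and 0.837% for Col1a1, at a median of 116 mouse UMIs against 3583 in NIH3T3 barcodes. Type V chains, which set fibril width, followed: Col5a2 had 158 UMIs, Col5a1 72 and Col5a3 28 in NIH3T3 cells. Col3a1, abundant in many tissue fibroblasts, had 7 UMIs, and Col11a1 and Col27a1 had 0. Among 13 other collagens, Col4a5 led with 73 UMIs, Col8a1 had 62 and Col6a3 52, and Col4a1 and Col4a2, the common basement membrane chains, had 1 each.

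Over all mouse genes, 2817 reached 100 UMIs over both groups together. Of these 1283 were at least 2-fold higher in NIH3T3 cells (45.5%) and 489 at least 2-fold lower (17.4%). The median gene had a log2 ratio of 0.83. With totals that leave out mitochondrial and ribosomal protein genes the median was 0.26 and the counts were 960 higher and 683 lower, so list medians below are read against that of all genes. A gene detected in 1 of the groups passes the 100 UMI filter only through the group where it is high, so list counts and medians describe the genes that passed and are not evidence for the list.

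Enzymes and chaperones that mature collagen were present with their substrates. Of 23 listed genes 6 passed the filter, 5 of them higher and 0 lower, with a median log2 ratio of 4.35. Serpinh1, the collagen chaperone HSP47, had 292 UMIs in NIH3T3 cells and 0 in naive T cells. Lox, the oxidase that crosslinks collagen, had 138 and 0, and Pcolce, which speeds removal of the procollagen tail, had 137 and 0. Ppib, a prolyl isomerase that all secretory cells use, differed less, with 232 CPM in NIH3T3 cells and 172 CPM in naive T cells, a ratio of 1.34 (1.09 to 1.67). That direction turns under totals without mitochondrial and ribosomal protein genes (log2 ratio -0.14).

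Fibronectin was the most abundant structural matrix RNA. Fn1 had 1038 UMIs in NIH3T3 cells, 862 CPM (810 to 916), and 1 UMI in naive T cells, a ratio of 630 (113 to 24908). It was seen in 74.6% of NIH3T3 barcodes and 12.97% of Jurkat barcodes. Spp1 (osteopontin, 457 UMIs), Sparc (a collagen-binding glycoprotein, 392), Bgn (the proteoglycan biglycan, 363) and Vcan (versican, 177) were at 0 in 0 h naive T cells, and Fbln2 (fibulin-2) had 275 UMIs against 1. All 6 members that passed the filter of 29 were higher, with a median log2 ratio of 6.42. The same list had 10 members at 0 in NIH3T3 cells, which allows at most 2.49 CPM each. They include Dcn and Lum, small proteoglycans of collagen fibrils, Postn, and Thbs1, a matricellular glycoprotein.

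Matrix turnover genes were led by lysosomal proteases and by inhibitors. Ctsl, a cathepsin that fibroblasts also secrete, had 798 CPM in NIH3T3 cells and 15.0 CPM in naive T cells, 53.0-fold higher (29.5 to 107). Timp1, an inhibitor of matrix metalloproteinases, had 340 UMIs against 0, at least 68.8-fold higher, and Timp2 had 642 against 21, 18.6-fold higher (12.03 to 30.2). The metalloproteinases themselves were lower in NIH3T3 cells than these inhibitors: Mmp14 had 87 UMIs, Mmp2 77, and Mmp3, Mmp9, Mmp10 and Mmp13 0. All 7 members that passed the filter of 21 were higher, with a median log2 ratio of 4.21.

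The actin list had a median log2 ratio of 0.78, near that of all genes. It held 10 members that were higher and 7 that were lower of 22 that passed, and related members were found on both sides. Cald1 (caldesmon, 170 UMIs against 0) and Flnc (filamin C, 111 against 0) were at 0 in naive T cells, and Tpm1, a tropomyosin of stress fibres, had 224 UMIs against 16. Another tropomyosin, Tpm3, had 82 UMIs against 151 and was lower, as were Tln1 (talin), Actn1 (an alpha-actinin), Cnn2 (a calponin) and Myl12b (a myosin light chain), with log2 ratios between -1.60 and -1.10. The actin-sequestering thymosins were also lower in NIH3T3 cells: Tmsb10 had 1672 CPM in NIH3T3 cells and 9095 CPM in naive T cells, 5.44-fold lower (5.17 to 5.72), and Tmsb4x was 0.42 times its naive T level (0.38 to 0.46). Actb, a ubiquitous actin, had 7553 CPM in NIH3T3 cells and 3703 CPM in 0 h naive T cells, a ratio of 2.04. The highest of the 6 naive T libraries had 17165 CPM of Actb. Smooth muscle genes were low in NIH3T3 cells, with 9 UMIs for Acta2 and 0 for Tagln and Cnn1.

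Intermediate filament, adhesion and caveolar genes were higher in NIH3T3 cells. Vim, the mesenchymal intermediate filament, had 835 CPM in NIH3T3 cells and 47.9 CPM in naive T cells, 17.4-fold higher (12.5 to 25.2). Lmna, which forms the stiff A-type nuclear lamina, had 367 against 9.57 CPM, 38.3-fold higher (18.4 to 95.9). Of 16 intermediate filament and tubulin genes 8 passed the filter, with 7 higher and 0 lower (median log2 ratio 3.72). Cav1 and Cavin1, which shape caveolae, had 184 and 248 UMIs in NIH3T3 cells and 0 in naive T cells. Itgb1, the common beta chain of matrix-binding integrins, had 207 CPM against 9.57 CPM, 21.6-fold higher (10.3 to 54.3). Of the 10 adhesion and caveolar genes that passed the filter of 20, 9 were higher and Thy1 was lower (median log2 ratio 5.28).

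Receptors and transcription factors of mesenchymal cells followed. Axl, a receptor kinase for the ligand Gas6, had 246 UMIs in NIH3T3 cells and 0 in naive T cells, and Ddr2, a collagen receptor kinase, had 144 and 0. Tnfrsf12a, the TWEAK receptor, was 31.9-fold higher (13.5 to 99.1). Pdgfra and Pdgfrb, through which these cells are known to respond to platelet-derived growth factor, had only 10 UMIs each. Tgfbr2 was lower, with 13 UMIs in NIH3T3 cells and 243 in 0 h naive T cells, 30.8-fold lower (17.7 to 58.7). Tgfbr2 had 332 CPM at 0 h, but all 18 receptors together summed to 129 CPM in the lowest naive T library. The gap to that library was therefore smaller. Hmga2, a chromatin protein of embryonic and transformed mesenchyme, had 547 UMIs against 0 and was seen in 75.6% of NIH3T3 cells (3.77% of Jurkat barcodes). Prrx1, Twist2 and Zeb2 had 110, 104 and 104 UMIs in NIH3T3 cells and 0 in naive T cells. Of 18 growth factor receptors 8 passed, with 5 higher and 1 lower (median log2 ratio 3.06), and of 27 mesenchymal transcription factors 7 passed, with 5 higher and 1 lower (median log2 ratio 4.395). Zeb1, which T cells also use, was 10.9-fold lower (8.64 to 13.9) than in 0 h naive T cells, with 68.9 against 751 CPM. The 27 factors together summed to 177 CPM in the lowest naive T library, so the gap of Zeb1 to that library was smaller. Sox9, a chondrocyte regulator, had 226 UMIs against 0, whereas its cartilage targets Col2a1 and Acan had 1 and 0 UMIs in NIH3T3 cells.

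Of the 12 genes with the largest ratios, 4 were small calcium- or sugar-binding proteins or annexins. S100a6, a calcium-binding protein of dividing cells, had 6722 UMIs in NIH3T3 cells, 5580 CPM (5447 to 5715), and 0 in 0 h naive T cells, at least 1360-fold higher, and at most 4 UMIs in any naive T library. S100a4, a marker often used for fibroblasts, had 1232 UMIs against 0, at least 249-fold higher. Lgals3 (galectin-3) had 892 against 1, a ratio of 541 (96.9 to 21408), whose log2 value of 9.08 was 7.24 when every cell had equal weight, and Anxa2 (annexin A2) 335 against 1, a ratio of 203 (36.2 to 8055). Lgals1 (galectin-1) had 2337 CPM in NIH3T3 cells and 75.2 CPM in naive T cells, 31.1-fold higher (23.8 to 41.4). Of the 18 galectins, annexins and S100 genes 12 passed the filter, with 10 higher and 2 lower (median log2 ratio 5.34). Jurkat barcodes had 0 human UMIs for S100A6 and LGALS3 in the same library. Slpi, a secreted protease inhibitor, had 1538 UMIs against 4, and Spata7, known for its role in cilia of the retina, 1485 against 0. Mouse Spata7 was also seen in 21.8% of Jurkat barcodes, with 65 UMIs there, and Slpi in 4.18%. The cause was not tested. H1f0, a linker histone, had 717 UMIs against 2 and Ifitm3, an antiviral membrane protein, 627 against 2.

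**Figure D3:**
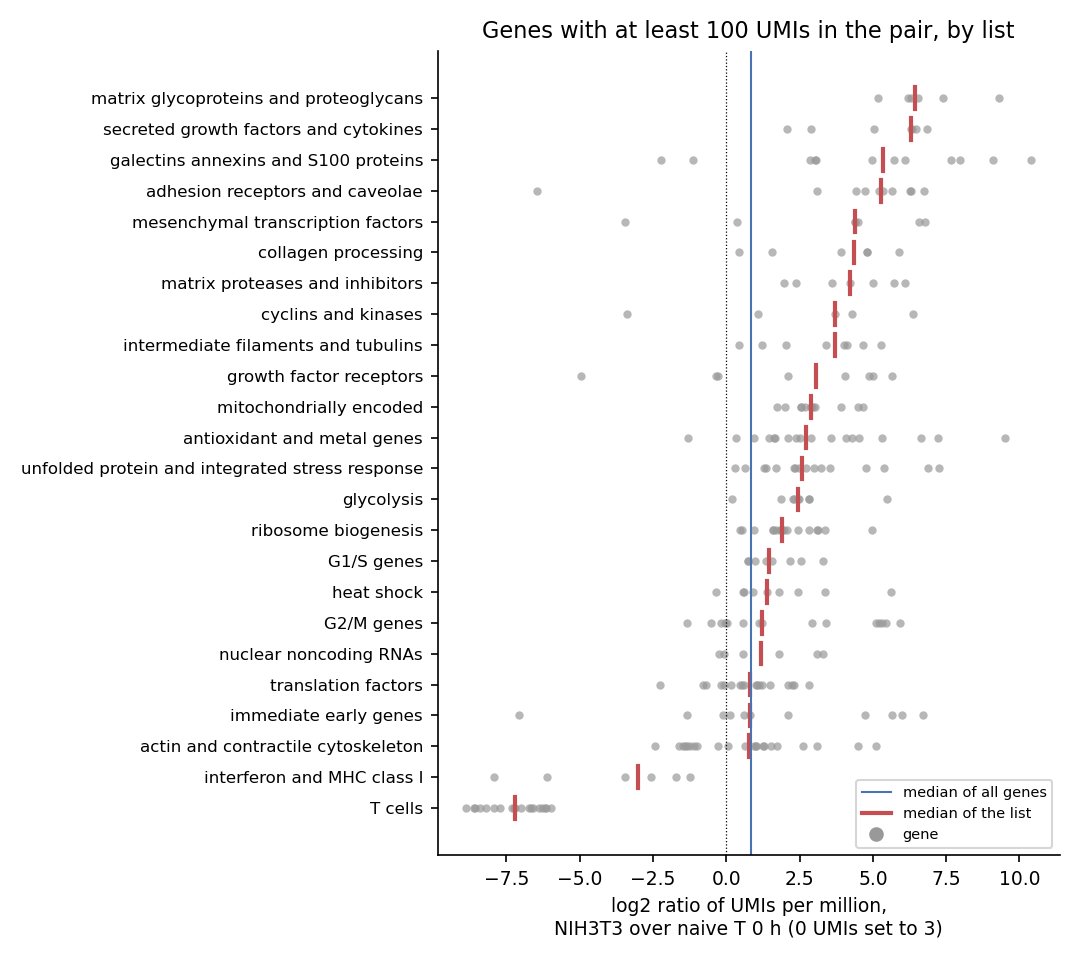
Log2 ratio of CPM in NIH3T3 cells over 0 h naive T cells (x axis) for genes that reached 100 UMIs over both groups (grey points), by gene list (rows, lists with at least 5 such genes), with each list's median in red. The blue line is the median of all 2817 genes at 0.83; medians run from 6.42 for matrix glycoproteins to -7.21 for T cell genes.

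Chemokines and growth factors were also among the secreted genes. Ccl2 and Ccl7, which draw monocytes, had 571 and 441 UMIs in NIH3T3 cells and 0 in each of the 6 naive T libraries. Csf1, the macrophage growth factor, had 388 UMIs in NIH3T3 cells and 0 in 0 h naive T cells, Cxcl1, a neutrophil chemokine, 163 and 0, and Fgf7, which acts on epithelium, 134 and 1. Mif, an abundant cytokine, had 1696 CPM in NIH3T3 cells and 228 CPM in 0 h naive T cells, 7.43-fold higher (6.34 to 8.75), and human MIF had 4096 CPM in Jurkat barcodes. Of 35 listed genes 7 passed the filter and all 7 were higher (median log2 ratio 6.29). The list summed to 4012 CPM in NIH3T3 cells and 447 CPM in 0 h naive T cells, and to 4452 CPM in the highest naive T library. Il6, Igf1, Igf2, Vegfc, Grem1, Ptn and Areg were at 0 in NIH3T3 cells, as were Cxcl12 and Fgf2, which had 1 UMI each in naive T cells.

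Ferritin, the cage that stores iron, took the largest share of any nuclear gene pair named here. Ftl1, its light chain, was the most abundant RNA, with 49819 UMIs, 41353 CPM in NIH3T3 cells and 1043 CPM in 0 h naive T cells, 39.6-fold higher (36.9 to 42.6). Fth1, the heavy chain, had 24123 CPM against 1223 CPM, 19.7-fold higher (18.5 to 21.1). Together they were 6.55% of UMIs in NIH3T3 cells, 0.694% of human UMIs (FTL and FTH1) in Jurkat barcodes of the same library, and 0.172% to 0.254% in the 6 naive T libraries. Ferritin genes have many near-identical copies, so how UMIs were assigned among them is uncertain. Mt1 and Mt2, metallothioneins that bind zinc and copper, had 3564 and 742 UMIs in NIH3T3 cells and 0 in 0 h naive T cells, and Mt1 was at least 721-fold higher. Hmox1, heme oxygenase 1, which frees iron from heme, had 244 UMIs against 0, and was listed with the heat shock genes. Txnrd1, a thioredoxin reductase, had 266 UMIs against 7. Sqstm1, an autophagy receptor, was 12.02-fold higher (8.91 to 16.6), and Sod1 was lower, with 85 UMIs against 129. Of 23 antioxidant and metal genes 18 passed the filter, 15 were higher and 1 was lower (median log2 ratio 2.71).

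Genes of the unfolded protein response and of the integrated stress response, held in 1 list, were also higher. Kinases that sense amino acid shortage or misfolded protein switch on the integrated stress response. Chac1, which breaks down glutathione, had 580 UMIs in NIH3T3 cells and 0 in any naive T library, at least 117-fold higher, and was seen in 57.0% of NIH3T3 barcodes and 1.67% of Jurkat barcodes. Trib3 had 253 UMIs against 1, Asns (asparagine synthetase) 204 against 0, Ddit3 (CHOP) 262 against 17 and Atf4, the transcription factor over them, 277 against 30. Hspa5, the main chaperone of the endoplasmic reticulum, had 636 CPM against 54.7 CPM, 11.6-fold higher (8.46 to 16.4). Of the 23 genes listed for both responses together, 16 passed the filter, and 14 were higher and 0 lower (median log2 ratio 2.60). The list summed to 4160 CPM in NIH3T3 cells, 883 CPM in 0 h naive T cells and 2220 CPM in the highest naive T library. The same 23 symbols summed to 2377 CPM in Jurkat barcodes of the mixed library, where human CHAC1 had 4.33 CPM and HSPA5 71.0 CPM. Heat shock genes summed to 3527 CPM in NIH3T3 cells and 1751 CPM in 0 h naive T cells, and to 6862 CPM in the highest naive T library. They were closer to all genes, with 5 of 9 higher, Hmox1 among them (median log2 ratio 1.39), and Hspa1a was at 0 in NIH3T3 cells.

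Growth and division genes were mixed. Myc, the growth regulator, had 316 UMIs in NIH3T3 cells and 3 in naive T cells, a ratio of 63.9 (21.7 to 312). Ccnd1, the D cyclin of adherent cells, had 409 UMIs against 0, and Cdk4 had 547 against 17, 19.5-fold higher (12.1 to 33.8). Ccnd3, a D cyclin of lymphocytes, was 10.4-fold lower (7.46 to 14.7). Of 12 cyclins and kinases 5 passed the filter, with 4 higher and 1 lower (median log2 ratio 3.72). Of 40 G1/S genes 8 passed the filter, with 5 higher and 0 lower (median log2 ratio 1.46). Of 54 G2/M genes 15 passed, with 9 higher and 1 lower (median log2 ratio 1.21). Over all genes 45.5% were higher and 17.4% lower, with a median of 0.83, so both lists were not far from all genes. Mki67, the proliferation antigen, had 170 UMIs against 0 and Top2a, topoisomerase II alpha, 246 against 4. Jurkat barcodes had more of both lists by symbol: the G2/M sum was 3094 CPM in NIH3T3 cells and 5240 CPM in Jurkat barcodes, and the G1/S sum was 1925 CPM in NIH3T3 cells and 3165 CPM in Jurkat barcodes. Cdkn1a, the cyclin inhibitor p21, had 375 UMIs against 0 in naive T cells, and Gas1, a growth arrest gene, 74 against 0. Cdkn2a and Cdkn2b, which encode the INK4 inhibitors and ARF, were at 0 in both groups. Among immediate early genes 5 were higher and 2 lower of 11 that passed, with a median log2 ratio of 0.81 near that of all genes, and their sum was 1790 CPM in NIH3T3 cells, 1042 CPM in 0 h naive T cells and 3549 CPM in the highest naive T library. Klf4 (171 UMIs against 1) and Fosl1 (132 against 0) stood high, Fos had 2 UMIs in NIH3T3 cells, and Klf2, which keeps T cells quiescent, had 2 in NIH3T3 cells and 162 in naive T cells.

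Mitochondrial and ribosomal protein RNA differed in opposite directions. The 13 mitochondrially encoded genes took 5.77% of UMIs in NIH3T3 cells and 0.861% in 0 h naive T cells, with 0.783% to 1.67% over the 6 naive T libraries. All 12 that passed the filter were higher in NIH3T3 cells (median log2 ratio 2.90). The share in Jurkat barcodes of the same library was 5.76%, so this share was alike for both lines in the mixed library. Per NIH3T3 cell it was 1.54%, 5.24% and 30.6% as the lowest, median and highest value. The 84 ribosomal protein genes took 22.3% in NIH3T3 cells, 28.3% in Jurkat barcodes and 50.5% in 0 h naive T cells (41.1% to 50.5% over the naive T libraries). Of 82 that passed the filter 4 were higher and 51 lower, with a median log2 ratio of -1.22. The 4 higher genes, named after their values were seen, were the paralogs Rpl39l, Rps27l and Rpl7l1, and Rps2, whose log2 ratio of 1.103 was 0.54 with totals that leave out these gene classes. Rpl39l had 1060 UMIs against 0. UMIs can be split between such paralogs and their parent genes. Ribosome biogenesis genes, which make ribosomes rather than form them, were higher, with 14 of 17 higher and 0 lower (median log2 ratio 1.89). Their sum was 4813 CPM in NIH3T3 cells and 1440 CPM in 0 h naive T cells, but reached 9434 CPM in another naive T library. Ncl (nucleolin) was 3.70-fold higher (3.23 to 4.25) and Nop16 had 156 UMIs against 3. Glycolysis genes were higher in 8 of 9 (median log2 ratio 2.44), such as Gapdh at 1963 CPM in NIH3T3 cells and 399 CPM in 0 h naive T cells. The list summed to 5523 CPM in NIH3T3 cells, 1276 CPM in 0 h naive T cells and 4972 CPM in the highest naive T library. Human GAPDH reached 9500 CPM in Jurkat barcodes.

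**Figure D4:**
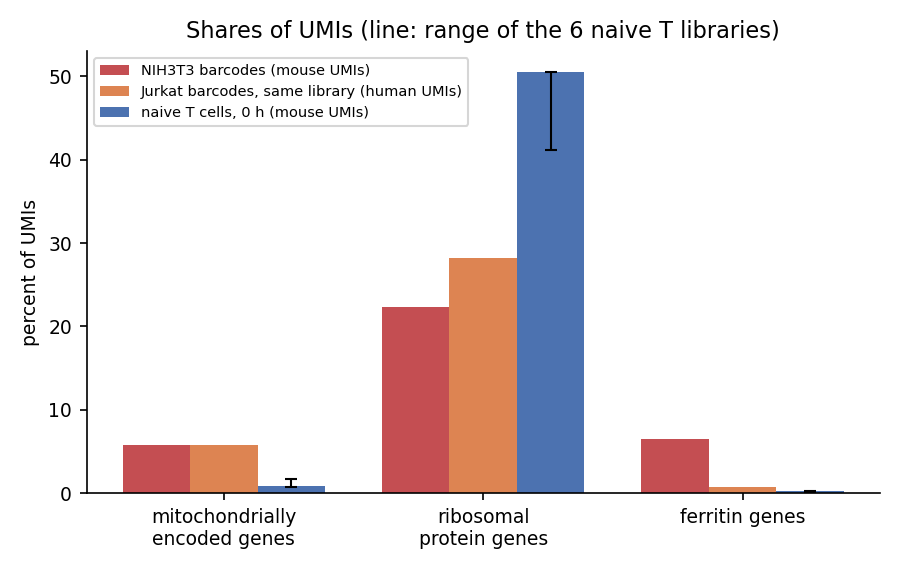
Percent of UMIs on mitochondrially encoded, ribosomal protein and ferritin genes (y axis) in NIH3T3 cells, Jurkat barcodes of the same library and 0 h naive T cells. Black lines give the range over 6 naive T libraries; ferritin takes 6.55% in NIH3T3 cells, and the mitochondrial share is 5.77% in NIH3T3 cells and 5.76% in Jurkat barcodes.

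Among the genes that were lower, the 12 smallest ratios were mostly lymphocyte genes. Ptprc (CD45, the leukocyte surface phosphatase) had 0 UMIs in NIH3T3 cells and 709 in naive T cells, at least 389-fold lower. Satb1, a chromatin organiser of T cells, and Trbc2, a T cell receptor constant chain, had 0 UMIs against 873 and 861. Coro1a, a coronin of leukocytes, had 2 UMIs against 531, and Ccr7, the lymph node homing receptor, 2 against 463. Of 25 T cell genes 19 passed the filter and all 19 were lower (median log2 ratio -7.21). AY036118, a locus that overlaps ribosomal RNA, had 2 UMIs in NIH3T3 cells and 1839 in 0 h naive T cells, and the mixed library was counted against 2 genomes and the naive T library against 1; the part of this in the value was not tested.

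Antigen presentation genes were unevenly low in NIH3T3 cells. H2-K1, 1 of the classical MHC class I heavy chains, had 7 UMIs in NIH3T3 cells and 1028 in naive T cells, 242-fold lower (117 to 603). H2-D1, another, had 486 and 701 UMIs and was only 2.38-fold lower (2.11 to 2.67). B2m, the shared light chain, was 5.90-fold lower (5.16 to 6.75), and Psmb8, an immunoproteasome subunit, had 0 UMIs against 126. MHC genes differ in sequence between mouse strains and resemble each other, so their counts are uncertain. Of 17 interferon and MHC genes 6 passed the filter and all 6 were lower. Isg15, Ifit1 and Ifit3, which interferon induces, had 14, 10 and 11 UMIs in NIH3T3 cells and 2, 1 and 1 in naive T cells.

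To compare NIH3T3 cells with each other, 262 cells were thinned to 1585 UMIs each and 29 shallower cells were left out. Of 352 genes with a mean of at least 0.5 UMIs, the median ratio of variance to mean (Fano factor, 1 for counting error alone) was 1.20, and 43 genes had at least 2. The Fano factor grows with the mean, so its values do not rank genes or lists of different levels by how much they vary. Ftl1 had the highest value, 14.6, from 13 to 182 UMIs per thinned cell around a median of 61.5, and Fth1 followed with 12.3, from 6 to 122 around 33. Mt1 had a Fano factor of 4.94 (0 to 30 UMIs, median 3) and Actb 3.91 (1 to 46, median 11). Of the 15 highest, 6 were mitochondrial and 2 ribosomal protein genes. Mitochondrial RNA summed to a median of 84.5 UMIs per thinned cell, with 137 at the 90th percentile and 469 in the highest cell. Among its genes mt-Co1 reached 83 UMIs (median 10), mt-Nd1 73 (median 9) and mt-Nd2 39 (median 2), so their values can also rest on few cells. The value of mt-Nd5, 6.37, came from 0 to 36 UMIs around a median of 0, so it can rest on few cells. It was 1.22 when cells were thinned to the 25th percentile of depth. Col1a2 had 0 to 4 UMIs per thinned cell, and the fibrillar collagens summed to a median of 1 and at most 5 (Fano factor 1.35).

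**Figure D5:**
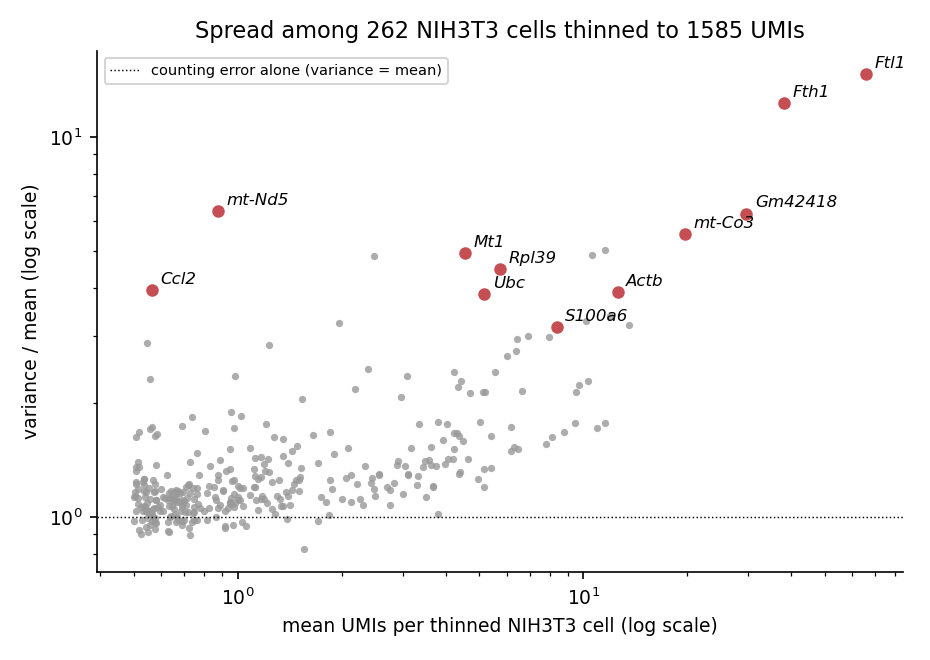
Variance over mean (y axis, log scale) against mean UMIs (x axis, log scale) of 352 genes over 262 NIH3T3 cells thinned to 1585 UMIs each. The dotted line marks counting error alone. Ftl1 (14.6) and Fth1 (12.3) lie highest. Among genes with a mean under 1, mt-Nd5 (6.37, with a median of 0 and at most 36 UMIs per cell) and Ccl2 (3.95) are highest.

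Chemokine RNA was uneven over the cells. Ccl2 had a Fano factor of 3.95, was at 0 in the median thinned cell and reached 12 UMIs. It was seen in 35.7% of unthinned NIH3T3 cells (30.2% to 41.5%) and in 4.18% of Jurkat barcodes. Ccl7, which lies beside Ccl2 in the genome, was detected in 34 of the 66 thinned cells with Ccl2 and in 38 of the 196 without, and over 262 cells Pearson's r between their UMIs was 0.66 and Spearman's rho 0.40. Mt2 was seen in 134 of 232 thinned cells with Mt1 and in 8 of 30 without. Between Ftl1 and Fth1 r was 0.43 and rho 0.47, and between Col1a2 and Fn1 r was 0.21 and rho 0.15, so the order of these pairs depends on the coefficient. These correlations are descriptions of cells of 1 library at equal depth.

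Cell cycle RNA was unevenly spread over the cells. The 54 G2/M genes summed to 0, 3 and 42 UMIs as the lowest, median and highest of the thinned cells (Fano factor 7.83), and 50 of 262 cells had at least 10. The 40 G1/S genes summed to 0, 2 and 13 (Fano factor 2.32). Between both sums Spearman's rho was 0.47 and Pearson's r 0.29 over 262 cells, and rho between the G2/M sum and the UMIs of the cell before thinning was -0.08. No cell was given a phase. The matrix glycoprotein list, in which Fn1 is the most abundant gene, summed to 0, 4 and 23 UMIs, and the adhesion and caveolar list to 0, 3 and 11.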

How the data were processed

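The authors deposited whole-number UMI counts for each gene in each barcode, made with cellranger 7.2.0 per the file headers, for the mixed library against a joint human and mouse gene list (36601 and 32285 genes) and for the naive T libraries against the mouse list alone. Builds were GRCh38 and mm10 per the submitters' processing notes. The settings of mapping and of barcode filters are not given in the sources used here, and no cell was removed here beyond the rule of 90% mouse UMIs. Doublets were not called: if all 56 barcodes between the species are doublets, about 34.1 mouse-mouse doublets (11.7% of the NIH3T3 barcodes) are implied by the group sizes.

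UMIs were summed per group and divided by the group's mouse UMIs. Ratios of genes that reached 100 UMIs over both groups used 3 UMIs in place of a 0, and at least 2-fold counted as called. Thinning drew without replacement to the 10th percentile of depth. Named were Col1a1 and Col1a2, the 15 genes with most UMIs, 12 largest and 12 smallest ratios, up to 6 members per list with most UMIs in the pair, the 15 largest Fano factors and up to 8 human genes. Other list members are named for being low or at 0 or as values beside these, and were chosen after their values were seen. The barcodes and the 38 hand-written gene lists were chosen with earlier results of these data known. Calls, intervals, thinning and Fano factors were tested on simulated data. Python 3.11.15, numpy 2.4.6, scipy 1.17.1, pandas 2.3.3 and matplotlib 3.10.9 were used. Alternatives changed the mouse share, depth, scaling, filter, fold, naive T library and thinning. Some genes that the naming rule selects are not reported here.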

Additional observations from a re-analysis of the deposited data

How the results depend on the processing

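With a least mouse share of 99%, 88 barcodes were left, with 0.709% human UMIs, 638 of 1658 tested genes higher (38.5%) and 102 genes with a Fano factor of at least 2; the cause was not tested. The human share was 1.45% at a least share of 80%, 1.22% at 95%, and 1.39% without the 5% of barcodes with the most mouse UMIs. With 50, 200 or 1 UMIs as the least in the pair, 2449, 552 or 5014 genes were higher and 867, 214 or 2080 lower, and at 4-fold 754 were higher and 257 lower. Against the naive T library without 4sU 863 of 3838 tested genes were lower (22.5%) and 1326 higher (34.5%); 440 of the 489 lower genes were shared, and Snhg12 turned to a log2 ratio of -0.53; the cause was not tested. The number of gene lists with a median above that of all genes was 19 of 24, and 19 to 22 under every alternative tried for it. Removing the 5 loci was chosen after seeing the data and left 1283 and 489 calls. Of 176 named genes, the ratios of 125 moved out of their counting interval under totals without mitochondrial and ribosomal protein genes. Those totals shift every log2 ratio by the same amount. The ratios of 60 moved against naive T cells without 4sU, 22 at the 99% share and 19 with equal weight of cells. With equal weight the log2 ratio was 7.24 for Lgals3 (9.08 in the report), 6.39 for Slpi (7.87), 8.71 for Anxa2 (7.67), 8.79 for Ifitm3 (7.57), 8.58 for H1f0 (7.77) and 4.05 for Col5a2 (5.58). The 2-fold calls rest on 1 library each, and a gene at 0 in NIH3T3 cells may still be present below 2.49 CPM. No paired analysis was possible because each group is 1 library and no test was made.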

Other observations

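Human RNA in the NIH3T3 barcodes had 2 loci out of proportion to Jurkat RNA. LINC00486, a noncoding RNA locus, had 282 UMIs in NIH3T3 barcodes, 1.83% of their human UMIs, and 254 in Jurkat barcodes, 0.0220% of theirs. PLCG2, a phospholipase gene, had 230 UMIs in NIH3T3 barcodes (1.495%) and 103 in Jurkat barcodes (0.00892%). The other 6 human genes with the most UMIs in NIH3T3 barcodes were MT-CO2, RPL41, RPS19, EEF1A1, MT-CO1 and RPLP1, with 72 to 111 UMIs, all highly expressed in Jurkat barcodes. The 20 listed Jurkat T cell genes summed to 79 UMIs in NIH3T3 barcodes and 6977 in Jurkat barcodes.

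The 56 barcodes between the species held RNA of both lines: Ftl1 was seen in 53 of them, S100a6 in 51 and Col1a2 in 30, and human TRBC1 in 52, CD3D in 47 and LCK in 32. Their median was 5001 UMIs, against 3644 in NIH3T3 barcodes and 3841 in Jurkat barcodes.

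Noncoding and imprinted RNAs of NIH3T3 cells were uneven. Neat1, the scaffold of paraspeckles, had 1309 CPM in NIH3T3 cells and 133 CPM in 0 h naive T cells, 9.87-fold higher (8.03 to 12.2), and was seen in 35.6% of Jurkat barcodes. Malat1 had 1774 CPM in NIH3T3 cells and 1859 CPM in naive T cells, a ratio of 0.95 (0.89 to 1.02). Of 16 imprinted genes 10 were at 0 in NIH3T3 cells, among them H19, Igf2, Mest and Peg10, while Grb10 had 76 UMIs and Dlk1 40, both with 0 in naive T cells.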
